A study of Mus musculus with 12 samples.

Results

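The 37 genes followed here mark T cells, B cells and plasma cells, cytotoxic T and natural killer (NK) cells, or lymphocytes and leukocytes in general. They were chosen by name and found through the gene symbols that the platform's annotation gives to its probe sets. Of the 37 genes, 35 had a probe set that the annotation gives to a single gene, as did 18194 genes in all. The 35 are 15 T cell genes, 12 B cell and plasma cell genes, 3 cytotoxic and NK genes and 5 genes shared by lymphocytes and other leukocytes. The remaining 2, Lck and Tcf7, had no such probe set and were not analysed here. The 35 genes rest on 54 probe sets, and 13 of them have more than 1.

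The mice were female C57BL/6 animals whose abdominal fat pads gave the RNA, and each of the 12 Affymetrix arrays held the RNA of 1 pool of fat pads. The groups were p47phox null mice on a high fat diet, wild type mice on the high fat diet, p47phox null mice on casein and wild type mice on casein, with 3 pools in each. The diets began at postnatal day 28 and ran for 13 weeks. p47phox is the subunit, encoded by Ncf1, that switches on the superoxide-making NADPH oxidase of phagocytes; it is missing from all cells of a null animal, leukocytes included. The number of mice in a pool is not given in the sources used here, so p-values measure the spread between pools.

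Lymphocytes are rare in fat. A lean fat pad holds scattered T, B and NK cells beside adipocytes, macrophages and vessels, and their number rises in obese fat. Many abdominal depots also enclose lymph nodes, in which T cells and follicles of B cells are packed together and which lymphocytes enter through high endothelial venules. In pooled tissue, fewer cells of a type and less RNA per cell cannot be told apart.

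Each value below is a log2 value relative to the median over the 12 pools, so 0 is the middle pool and 1 is a doubling. The deposited values were centred per probe set. For a gene with several probe sets the value is their mean, so its middle pool can lie slightly off 0, and its 12-pool median below means this 0. Because of the centring, levels cannot be compared between genes, and a gene that stays near 0 in every pool cannot be told from one below detection. For the same reason the presence of fat could not be checked: the median of 12 adipocyte genes lay between -0.54 and 0.31, which shows only how pools differ. The targeted gene Ncf1 was -0.29, -0.21 and -0.19 in null high fat diet pools, 0.37, 0.50 and 0.72 in wild type pools on that diet, -0.19, -0.23 and -0.23 in null casein pools and 0.07, 0.37 and 0.85 in wild type casein pools. By this mean of its probe sets, every null pool lay below every wild type pool. Of the probe sets, 1 did not separate the genotypes on casein, with means of 0.01 in null and -0.10 in wild type pools. On the high fat diet its null pools all lay below its wild type pools, with means of -0.07 and 0.12. The other probe sets separated the genotypes on both diets. The difference of the Ncf1 mean on the high fat diet was -0.76 ± 0.16 (SE, limma adjusted p = 0.0312), and on casein -0.65 ± 0.16 (limma adjusted p = 0.521). The call on the high fat diet held in 16 of 22 alternatives, with an adjusted p of up to 0.109 and differences from -1.37 to -0.67. Which of the Ncf1 probe sets lie in the altered part of the gene was not analysed here.

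The lymphocyte genes set 1 pool apart from the rest. Wild type casein pool 3 was the highest of the 12 pools for 32 of the 35 genes. Of all 18194 genes, 10.3% were highest in that pool. In it, 20 of the 35 genes, or 57.1%, lay more than 1 log2 unit above their 12-pool median, against 2.23% of all genes. In each of the other 11 pools, 0 or 1 of the 35 genes did so. The 3 exceptions to the first count were Jchain, Klrd1 and Gzma. Of the 54 probe sets, 46 were highest in this pool when taken singly.

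**Figure D1:**
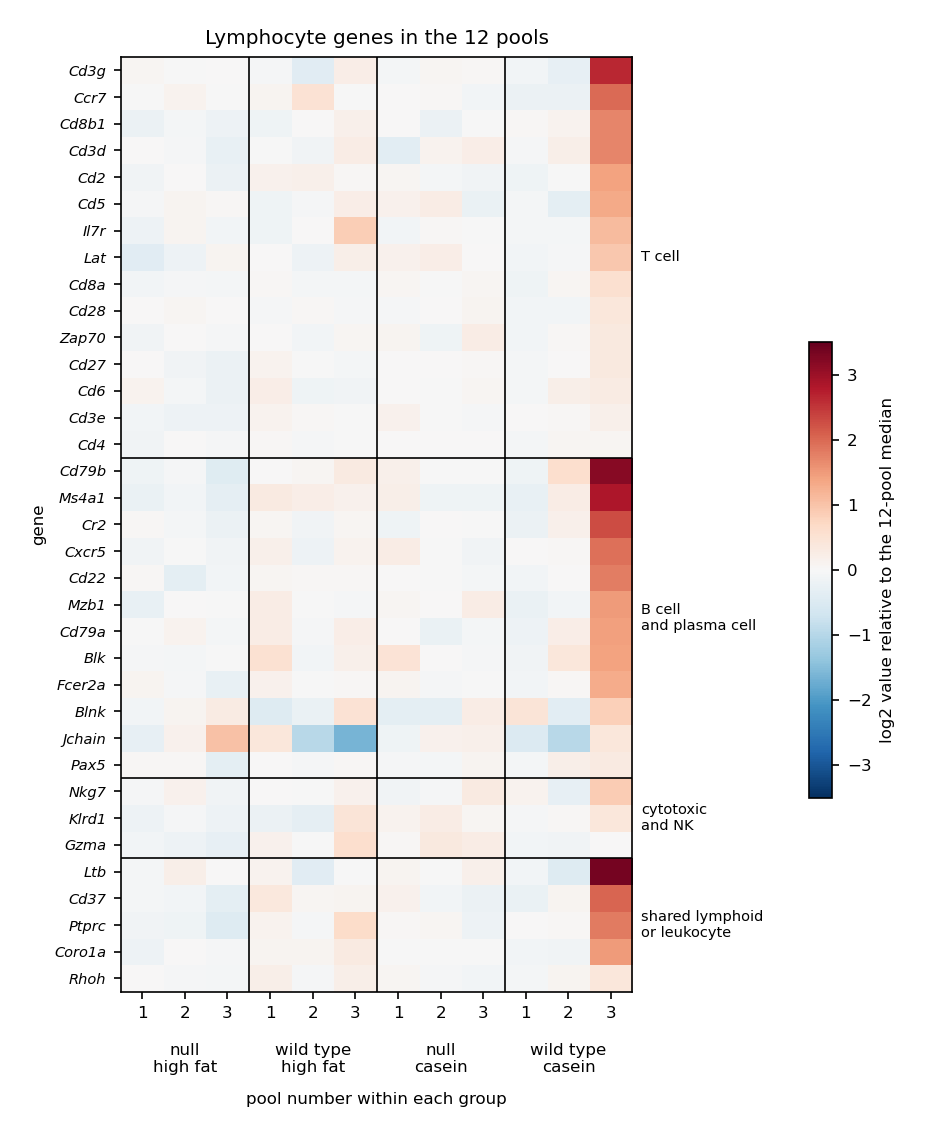
Log2 value of each of the 35 lymphocyte genes (rows, by group of genes) in each of the 12 pools (columns, by diet and genotype), relative to the gene's 12-pool median; red is above it and blue below. The last column, wild type casein pool 3, is the highest for 32 of the 35 genes, and the palest rows there are Cd4 at 0.07 and Gzma at 0.01.

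The stretches of DNA before the starts of 4 of these genes are shown because the genes, from separate branches of the lymphocyte lineage, were high in the same pool. Ltb had the highest value of all 35 genes there, Cd3g and Cd3d are neighbours read in opposite directions whose starts lie 1355 bases apart, and Cd79a carries the signal of the B cell receptor. Each sequence is the 250 bases before the start of the gene, 5′ to 3′ on the gene's own strand, from the RefSeq promoter table of the build GRCm38.p6. The window of Ltb is chr17:35194257-35194506 on the + strand, that of Cd3g chr9:44980432-44980681 on the - strand, that of Cd3d chr9:44981536-44981785 on the + strand and that of Cd79a chr7:24897247-24897496 on the + strand. Capitals mark matches, on either strand, to 1 of 4 motifs: AGGAAG, bound by ETS factors, TGTGGT, bound by RUNX factors, CCCNNGGG, bound by EBF factors, and the octamer ATGCAAAT, bound by POU factors.

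Ltb: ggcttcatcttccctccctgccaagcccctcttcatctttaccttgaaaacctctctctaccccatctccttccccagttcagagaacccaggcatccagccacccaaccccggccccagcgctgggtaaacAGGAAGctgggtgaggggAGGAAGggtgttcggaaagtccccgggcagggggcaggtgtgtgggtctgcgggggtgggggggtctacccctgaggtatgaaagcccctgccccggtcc
Cd3g: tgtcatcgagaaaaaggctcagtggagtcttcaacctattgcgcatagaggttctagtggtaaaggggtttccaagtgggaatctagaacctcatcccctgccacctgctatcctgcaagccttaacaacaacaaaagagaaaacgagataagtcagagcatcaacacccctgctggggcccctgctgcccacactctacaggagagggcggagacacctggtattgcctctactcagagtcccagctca
Cd3d: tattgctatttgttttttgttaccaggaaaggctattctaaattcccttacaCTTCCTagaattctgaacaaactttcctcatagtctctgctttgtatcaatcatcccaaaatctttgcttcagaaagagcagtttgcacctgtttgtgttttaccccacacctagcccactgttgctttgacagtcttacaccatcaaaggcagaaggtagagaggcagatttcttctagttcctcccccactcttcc
Cd79a: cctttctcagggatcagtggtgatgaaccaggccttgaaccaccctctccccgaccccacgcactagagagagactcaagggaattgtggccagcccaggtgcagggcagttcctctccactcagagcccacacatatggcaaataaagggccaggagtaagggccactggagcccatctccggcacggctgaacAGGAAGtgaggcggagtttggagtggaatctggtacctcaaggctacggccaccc

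The matches in these 4 windows were all to AGGAAG: 2 before Ltb, 1 before Cd3d, 1 before Cd79a and 0 before Cd3g. The promoter table held 23 of the 35 genes, in 29 windows of 250 bases. AGGAAG was found in 17 of the 29 windows, or 58.6%, against 29.5% of the 32851 windows of this length in the table. The share was 13.8% against 14.0% for TGTGGT, 13.8% against 11.8% for CCCNNGGG, and 3.45% against 1.6% for the octamer. Windows of the same gene can overlap, and a match describes the letters only.

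The T cell genes had a median of 0.93 in wild type casein pool 3 and between -0.09 and 0.05 in the other 11 pools. All 15 were highest in that pool, 7 of them by more than 1 over their 12-pool median. The genes for parts of the T cell receptor complex did not move alike. Cd3g, a CD3 chain of that complex, was 0.08, 0.00 and 0.00 in null high fat diet pools 1 to 3, -0.04, -0.41 and 0.25 in wild type pools on that diet, -0.07, 0.08 and 0.04 in null casein pools and -0.08, -0.29 and 2.63 in wild type casein pools. Its value in wild type casein pool 3 corresponds to 6.2-fold over its 12-pool median, and the other 11 pools stay within 0.41 of that median. Cd3d, the neighbouring gene for another CD3 chain, was 1.70 in that pool, against -0.36 to 0.27 in the other 11. Cd3e, the third CD3 chain of the complex, was 0.18 in that pool, against -0.19 to 0.16 in the other 11, which is hardly a gap.

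The coreceptors split in the same way in wild type casein pool 3. Cd8b1, the beta chain of CD8 on cytotoxic T cells, was 1.70 in that pool, against -0.21 to 0.17 in the other 11. Cd8a, the alpha chain, was 0.56 in that pool, against -0.14 to 0.07 in the other 11; 4 of its 5 probe sets were highest in wild type casein pool 3, at 0.37 to 0.90, and the fifth was at 0.09. Cd4, the coreceptor of helper T cells, was 0.07 in that pool, against -0.12 to 0.06 in the other 11, and 1 of its 2 probe sets was not highest in wild type casein pool 3. In this pool the T cell signal was thus clear in CD3 gamma, CD3 delta and CD8 beta and close to the other pools in CD3 epsilon and CD4.

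Receptors that guide T cells or keep them alive were among the higher ones. Ccr7, which draws naive T cells into lymph nodes, was -0.01, 0.12 and -0.02 in null high fat diet pools 1 to 3, 0.11, 0.50 and 0.00 in wild type pools on that diet, 0.00, 0.05 and -0.10 in null casein pools and -0.21, -0.21 and 1.98 in wild type casein pools. One other pool, wild type high fat diet pool 2, stood above the rest at 0.50. Il7r, the receptor chain for the survival factor IL7, was -0.18, 0.09 and -0.08 in null high fat diet pools 1 to 3, -0.16, 0.01 and 0.85 in wild type pools on that diet, -0.09, 0.05 and -0.02 in null casein pools and -0.06, -0.07 and 1.12 in wild type casein pools. Wild type high fat diet pool 3, at 0.85, came close to wild type casein pool 3, at 1.12, and no other pool passed 0.09.

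Returning to wild type casein pool 3, the adhesion receptor Cd2 was 1.41 in that pool, against -0.20 to 0.19 in the other 11. Cd5, a surface receptor that dampens T cell receptor signals, was 1.32 in that pool, against -0.34 to 0.25 in the other 11, and Lat, the adaptor that links the receptor to downstream signals, was 0.93 in that pool, against -0.41 to 0.24 in the other 11. Other T cell genes showed small gaps: Cd28, the costimulatory receptor, at 0.40 (-0.11 to 0.09), Zap70, the kinase recruited to the receptor, at 0.36 (-0.15 to 0.26), Cd27, a costimulatory receptor of the TNF receptor family, at 0.34 (-0.22 to 0.13), and Cd6, a relative of Cd5, at 0.29 (-0.21 to 0.23), where the value of wild type casein pool 3 is followed by the range of the other 11 pools. Of 18 other T cell genes, 1 lay more than 1 above its median in that pool, Gimap3 at 1.05. Their median was 0.21 in wild type casein pool 3 and -0.06 to 0.07 in the other 11.

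**Figure D2:**
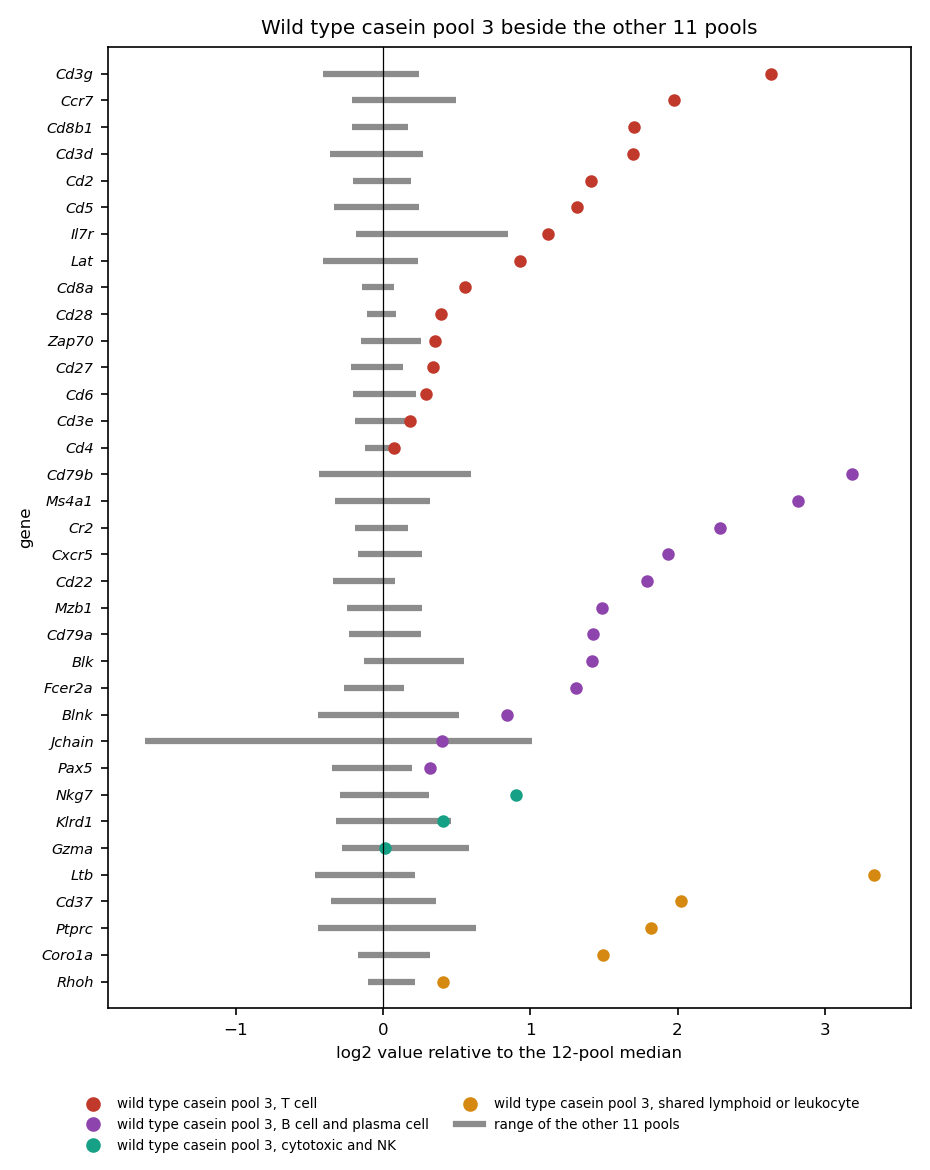
Value of each lymphocyte gene in wild type casein pool 3 (points, coloured by group of genes) beside the range of the other 11 pools (grey bars), on the log2 scale relative to the 12-pool median. Ltb, Cd79b, Ms4a1 and Cd3g lie farthest from the grey bars, at 3.34, 3.19, 2.82 and 2.63, while Gzma, Klrd1 and Jchain lie within them.

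B cell genes were higher still in the same pool. The 12 B cell and plasma cell genes had a median of 1.46 in wild type casein pool 3 and -0.15 to 0.16 in the other 11 pools. Of the 12, 11 were highest there and 9 lay more than 1 above their 12-pool median. Cd79b, a signalling chain of the B cell receptor, was -0.14, -0.04 and -0.43 in null high fat diet pools 1 to 3, 0.00, 0.07 and 0.30 in wild type pools on that diet, 0.17, 0.00 and 0.00 in null casein pools and -0.16, 0.59 and 3.19 in wild type casein pools. Wild type casein pool 2, at 0.59, was the next highest pool, more than 2 log2 units lower. Cd79a, its partner chain, was 1.42 in that pool, against -0.23 to 0.25 in the other 11. Ms4a1, which encodes the B cell surface protein CD20, was -0.22, -0.10 and -0.32 in null high fat diet pools 1 to 3, 0.32, 0.23 and 0.16 in wild type pools on that diet, 0.20, -0.15 and -0.15 in null casein pools and -0.26, 0.25 and 2.82 in wild type casein pools, and its 2 probe sets were at 3.61 and 2.02 in wild type casein pool 3.

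Genes of follicular B cells were in the same range in wild type casein pool 3. Cr2, the complement receptor CD21 of B cells and follicular dendritic cells, was 2.29 in that pool, against -0.19 to 0.17 in the other 11. Cxcr5, the receptor that draws B cells into follicles, was 1.94 in that pool, against -0.17 to 0.26 in the other 11, and Fcer2a, the low-affinity IgE receptor CD23, was 1.31 in that pool, against -0.27 to 0.14 in the other 11. The probe sets of Fcer2a differed, at 2.27 and 0.35 in wild type casein pool 3. Cd22, an inhibitory receptor of B cells, was 1.79 in that pool, against -0.34 to 0.08 in the other 11. Blk, a kinase of the B cell receptor pathway, was 1.42 in that pool, against -0.13 to 0.55 in the other 11; among the other 11, wild type high fat diet pool 1 at 0.55 and null casein pool 1 at 0.49 stood highest. Blnk, an adaptor of that pathway, varied widely in all groups and was 0.84 in that pool, against -0.44 to 0.51 in the other 11. Pax5, the transcription factor that sets B cell identity, was 0.32 in that pool, against -0.35 to 0.20 in the other 11, and 1 of its 2 probe sets was not highest in wild type casein pool 3.

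Other B cell genes followed, while genes of antibody-secreting cells did not. Of 18 other B cell genes, 11 lay more than 1 above their median in wild type casein pool 3, among them Fcmr, an IgM receptor, at 3.63, H2-Ob, an MHC class II chain of B cells, at 3.18, and Pou2af1, a coactivator of octamer-binding factors, at 2.84. The median of these 18 genes was 1.60 there and -0.12 to 0.08 in the other 11. The 10 plasma cell and immunoglobulin genes had a median of -0.04 in wild type casein pool 3 and -0.05 to 0.20 in the others, and 0 of the 10 lay more than 1 above their median in that pool. Among the members, Mzb1, an endoplasmic reticulum protein of marginal zone B cells and plasma cells, was 1.49 in that pool, against -0.25 to 0.27 in the other 11. Jchain, the joining chain of secreted IgA and IgM, was -0.28, 0.16 and 1.01 in null high fat diet pools 1 to 3, 0.39, -0.97 and -1.62 in wild type pools on that diet, -0.14, 0.14 and 0.18 in null casein pools and -0.49, -0.97 and 0.40 in wild type casein pools. Its highest pool was null high fat diet pool 3 at 1.01 and its lowest wild type high fat diet pool 3 at -1.62, the widest span of any of the 35 genes outside wild type casein pool 3. The 8 germinal centre genes had a median of 0.00 in wild type casein pool 3.

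The cytotoxic and NK genes did not mark that pool. Their median was 0.40 in wild type casein pool 3 and -0.17 to 0.46 in the other 11, the highest of which was wild type high fat diet pool 3. Nkg7, a membrane protein of cytotoxic granules, was 0.90 in that pool, against -0.29 to 0.31 in the other 11. Klrd1, the CD94 chain of NK receptors, was -0.18, -0.04 and -0.17 in null high fat diet pools 1 to 3, -0.20, -0.32 and 0.46 in wild type pools on that diet, 0.12, 0.26 and 0.06 in null casein pools and -0.04, 0.04 and 0.40 in wild type casein pools. Gzma, a granule protease of cytotoxic cells, was -0.10, -0.18 and -0.28 in null high fat diet pools 1 to 3, 0.16, -0.01 and 0.58 in wild type pools on that diet, 0.05, 0.35 and 0.26 in null casein pools and -0.10, -0.12 and 0.01 in wild type casein pools. For both of the last genes, wild type high fat diet pool 3 was the highest pool. Of 19 other cytotoxic and NK genes, 1 lay more than 1 above its median in wild type casein pool 3: Ccl5, a chemokine of T and NK cells, at 1.91.

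The 5 shared genes were also high in wild type casein pool 3, with a median of 1.82 against -0.10 to 0.22 in the other 11. Ltb, which encodes the lymphotoxin beta chain by which lymphocytes maintain lymphoid stroma, was -0.06, 0.22 and 0.01 in null high fat diet pools 1 to 3, 0.13, -0.41 and -0.03 in wild type pools on that diet, 0.10, -0.01 and 0.17 in null casein pools and -0.09, -0.46 and 3.34 in wild type casein pools. In that pool it stood 10.1-fold above its 12-pool median, and it ranked 84 among the 18194 genes there. Cd37, a tetraspanin of mature B cells and other leukocytes, was -0.06, -0.09 and -0.35 in null high fat diet pools 1 to 3, 0.36, 0.08 and 0.09 in wild type pools on that diet, 0.15, -0.08 and -0.21 in null casein pools and -0.24, 0.11 and 2.02 in wild type casein pools. Ptprc, the pan-leukocyte phosphatase CD45, was -0.13, -0.15 and -0.44 in null high fat diet pools 1 to 3, 0.12, -0.04 and 0.63 in wild type pools on that diet, 0.05, 0.08 and -0.17 in null casein pools and 0.00, 0.03 and 1.82 in wild type casein pools; wild type high fat diet pool 3 was again the next highest. Coro1a, an actin regulator of leukocytes, was 1.49 in that pool, against -0.17 to 0.32 in the other 11. Rhoh, a small GTP-binding protein of blood cells, was 0.40 in that pool, against -0.10 to 0.22 in the other 11, and 1 of its 3 probe sets was not highest in wild type casein pool 3.

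Lymph node was looked for with genes of its stroma and vessels. Of 14 such genes, 2 lay more than 1 above their median in wild type casein pool 3 and none did in any of the other 11. Glycam1, a ligand for lymphocyte homing made by high endothelial venules, was -0.06, -0.07 and -0.04 in null high fat diet pools 1 to 3, 0.04, -0.08 and 0.05 in wild type pools on that diet, 0.08, 0.00 and 0.00 in null casein pools and 0.14, 0.00 and 4.88 in wild type casein pools. Cxcl13, the chemokine of B cell follicles, was 0.30, 0.05 and -0.87 in null high fat diet pools 1 to 3, -0.05, 0.08 and 0.15 in wild type pools on that diet, 0.24, -0.57 and -0.16 in null casein pools and -0.47, -0.21 and 2.29 in wild type casein pools. Both singled out wild type casein pool 3. Bst1, a stromal surface enzyme, was 0.72 in that pool, against -0.14 to 0.09 in the other 11. Madcam1, a vascular addressin, was 0.27 in that pool, against -0.14 to 0.19 in the other 11, and Chst4, a sulfotransferase of high endothelial venules, was 0.05 in that pool, against -0.36 to 0.11 in the other 11. The median of the 14 genes was 0.13 in wild type casein pool 3 and -0.10 to 0.06 in the other 11, so Glycam1 and Cxcl13 and not the list as a whole marked the pool.

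Genes of the thymus and, but for 1 gene, the spleen did not mark the pool. The 11 thymocyte genes reached at most 0.25 in wild type casein pool 3. Of 9 spleen genes, 1 lay more than 1 above its median there: Cd5l, a protein secreted by tissue macrophages including those of liver, at 2.12. The 13 dendritic cell genes had a median of 0.09 and the 15 macrophage genes one of -0.07.

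The same pool was also the highest for genes of liver and adrenal gland. The median of 14 liver genes was 4.61 in wild type casein pool 3 and -1.36 to 1.41 in the other 11, and that of 10 adrenal gland genes was 2.61 and -0.12 to 0.14. Of these, 13 liver genes and 8 adrenal genes lay more than 1 above their 12-pool median there. Other organs did not mark the pool in this way. The median of 13 ovary, oviduct and uterus genes was -0.90 there and -1.16 to 0.83 in the other 11. That of 16 skeletal muscle genes was 0.41 and -2.10 to 4.58. The part of liver or adrenal tissue in the lymphocyte values was not tested. Over all 12 pools, the 10 genes outside the lists that correlated best with the mean of the T cell genes were led by Ugt2b34, Bhmt2 and Lcat (Pearson r = 0.99 each), which are expressed in liver. Those for the B cell mean were led by Agmat, Ces1g and Acsm1 (r = 0.99 each), and included Fcrl1, an Fc receptor-like gene of B cells (r = 0.99). All of these correlations share 1 high pool. Over the other 11 pools the closest gene to the T cell mean was Sash3, an adaptor of lymphocytes (r = 0.93). Ercc1 and Dusp9 followed closely (r = 0.92 each). The closest to the B cell mean was Arr3, a cone arrestin (r = 0.98). No p-value was computed for these correlations.

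**Figure D3:**
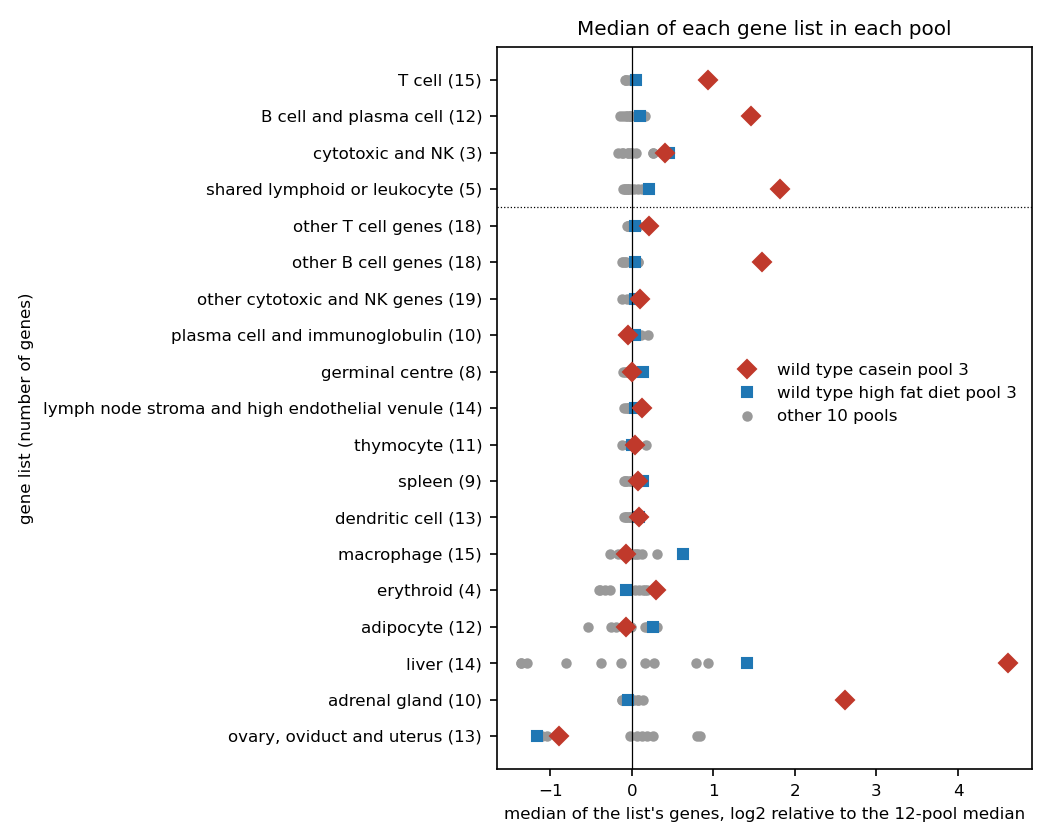
Median of each gene list (rows, number of genes in brackets) in each pool, on the log2 scale relative to the 12-pool median; red diamonds are wild type casein pool 3, blue squares wild type high fat diet pool 3 and grey points the other 10 pools. The red diamond stands apart for the T cell (0.93), B cell (1.46), shared (1.82), liver (4.61) and adrenal (2.61) lists, and the blue square for macrophages (0.63).

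Leaving that pool aside, the median span of the lymphocyte genes was slightly above that of all genes. Over the other 11 pools the 35 genes spanned 0.18 to 2.63. Their median span was 0.54, against 0.48 for all genes. Over all 12 pools the corresponding median spans were 1.62 and 0.50. Wild type high fat diet pool 3 was the highest of the other 11 for Il7r, Ptprc, Klrd1 and Gzma, among others. In the same pool the 15 macrophage genes had a median of 0.63, the highest of the 12 pools, and Itgax, an integrin of macrophages and dendritic cells, was at 1.76; their part in the lymphocyte values was not tested.

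The first comparison asked whether lymphocyte genes differed between null and wild type fat on the high fat diet. The limma fit over all 18194 genes called 0 of the 35 genes at an adjusted p of 0.05, against 5.92% of all genes, and 2 of the 35 had an unadjusted p under 0.05. The differences were small, with a median of -0.13 (-0.03 over all genes), and 29 of the 35 were below 0. All 3 null pools lay below all 3 wild type pools for 8 genes, or 22.9% of the 35, against 17.3% of all genes. For 0 of the 35 the null pools all lay above, against 14.9% of all genes.

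Of the T cell genes, 12 of 15 were lower in null pools, with a median difference of -0.13. It moved to -0.057 when pool 3 of the wild type high fat group was left out, to -0.075 when its pool 1 was and to -0.062 when pool 3 of the null group was. Cd3e was -0.10, -0.18 and -0.19 in null high fat diet pools 1 to 3, 0.14, 0.04 and 0.00 in wild type pools on that diet, 0.16, -0.01 and -0.03 in null casein pools and 0.00, 0.04 and 0.18 in wild type casein pools. Its difference was -0.21 ± 0.08 (SE, limma adjusted p = 0.125), and the null and wild type high fat diet pools did not overlap. Cd3e rests on 1 probe set, and the other CD3 chains did not follow it. Cd3g differed by 0.10 ± 0.60 and Cd3d by -0.15 ± 0.37 (SE), with overlapping pools for both. Cd2 averaged -0.10 ± 0.11 in null pools and 0.13 ± 0.07 in wild type pools (SD, n = 3 each), again without overlap. The largest T cell difference, that of Il7r at -0.29 ± 0.32 (SE), rested on wild type high fat diet pool 3.

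Of the B cell and plasma cell genes, 10 of 12 were lower, with a median difference of -0.13, which moved to -0.079 when pool 1 of the wild type high fat group was left out and to -0.19 when its pool 2 was. Ms4a1 averaged -0.22 ± 0.11 in null pools and 0.24 ± 0.08 in wild type pools (SD, n = 3 each). These pools did not overlap, but the fit shares its spread with wild type casein pool 3 and gave -0.45 ± 0.60 (SE, limma adjusted p = 0.698). Without that pool the standard error was 0.14 and the limma adjusted p 0.0854; 0 of the 35 genes were then called, against 5.62% of all genes. In a fit of only the null and wild type high fat diet pools, Ms4a1 was the 1 gene of the 35 called (adjusted p = 0.039). Cd79b averaged -0.20 ± 0.21 in null pools and 0.12 ± 0.16 in wild type pools (SD, n = 3 each), without overlap.

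Of the shared genes, Cd37, Ptprc and Coro1a had null pools wholly below wild type pools. Ptprc differed most, by -0.48 ± 0.40 (SE, limma adjusted p = 0.512), and by -0.48 ± 0.16 (limma adjusted p = 0.107) without wild type casein pool 3. All 3 cytotoxic genes were lower, and Gzma had the smallest p of the 35, with -0.19 ± 0.09 in null pools and 0.24 ± 0.31 in wild type pools (SD, n = 3 each). Its difference was -0.43 ± 0.14 (SE, limma adjusted p = 0.0863), and with array weights it was called (limma adjusted p = 0.0214), as was Cd3e (0.0123). The median difference of macrophage genes was -0.33 with 0 of 15 called, and that of adipocyte genes -0.52 with 5 of 12 called, all lower in null pools. The part of either in the lymphocyte values was not tested.

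Jchain went the other way. Its mean was 0.30 ± 0.66 in null pools and -0.73 ± 1.02 in wild type pools (SD, n = 3 each), a difference of 1.03 ± 0.51 (SE, limma adjusted p = 0.237), and the pools overlapped. Among the 10 plasma cell and immunoglobulin genes, 2 rose and 2 fell. Igha, the heavy chain constant region of IgA, rose by 2.01 ± 0.44 (SE, limma adjusted p = 0.0326), and its values were 1.02, 0.68 and 1.84 in null high fat diet pools 1 to 3, -0.45, -0.94 and -1.10 in wild type pools on that diet, 0.01, 0.29 and 1.67 in null casein pools and 0.01, -0.97 and -0.29 in wild type casein pools. Derl3, which clears misfolded proteins in secretory cells, rose by 0.74 ± 0.13 (SE, limma adjusted p = 0.0225). Tnfrsf17, the plasma cell survival receptor BCMA, fell by 0.73 (SE 0.15, limma adjusted p = 0.0278), and the gene that the annotation names Ighm fell by 0.38 (SE 0.09, limma adjusted p = 0.0387). Ighm is the mean of 11 probe sets that differ: its difference was -0.08 by their median (limma adjusted p = 0.598) and -2.02 by the probe set with the largest interquartile range (limma adjusted p = 0.0247). Igha is the mean of 3 probe sets, and its difference lay between 1.60 and 2.49 over its alternatives.

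These 4 calls were not stable. Derl3 and Tnfrsf17 passed in 16 of 22 alternatives each, Igha in 15 and Ighm in 11. The highest limma adjusted p over these was 0.0767 for Derl3, 0.129 for Igha, 0.115 for Tnfrsf17 and 0.598 for Ighm. Each of the 4 was lost on leaving out any 1 wild type high fat diet pool, null high fat diet pool 2 or null high fat diet pool 3. Pool number as a block took away Tnfrsf17 (with Ighm), and Derl3, Igha and Ighm were lost when 3 pools with unusual levels of other tissues' genes were left out together: pool 3 of wild type casein, pool 2 of wild type high fat and pool 1 of null high fat. The settings were applied to these 4 genes after their values were seen. On the high fat diet, the pools with high Igha also differed in genes of other organs. There, 13 ovary, oviduct and uterus genes had medians of 0.13, 0.83 and 0.81 in null pools. The wild type pools of that diet had -1.04, -1.10 and -1.15, and 8 of the 13 were called higher in null pools. Casein pools are not set side by side here, though null casein pool 3 also had high Igha. Their part in the values of Igha, Derl3 and Jchain was not tested.

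Beyond these, 1 of 18 other T cell genes and 1 of 18 other B cell genes passed, close to the 5.92% of all genes that did. Il2ra, the IL2 receptor alpha chain, fell by 0.27 (SE 0.07, limma adjusted p = 0.0494), a call that held in 1 of 21 alternatives, with an adjusted p of up to 0.164. Ebf1, a factor of both B cells and adipocytes, fell by 0.72 (SE 0.18, limma adjusted p = 0.0463), and held in 11 of 22, with an adjusted p of up to 0.171. Of 19 other cytotoxic genes 0 passed; Prf1, the pore-forming protein, had the smallest p, at -0.25 ± 0.08 (SE, limma adjusted p = 0.0828). In the lymph node stroma and venule list 1 of 14 passed: Coch, a secreted matrix protein, rose by 0.94 (SE 0.18, limma adjusted p = 0.0242), while Glycam1 and Cxcl13 did not pass. Elsewhere the calls included lower Lep, Pparg, Aqp7 and Cebpa (adipocyte), Slc4a1 (erythroid), Cd1d1 (thymocyte) and Cela1 (pancreas) and higher Itga9 and Pdpn (lymphatic endothelium), Hmgb2 (spleen) and Oosp1, Cyp11a1, Inha and Zp3 (ovary).

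**Figure D4:**
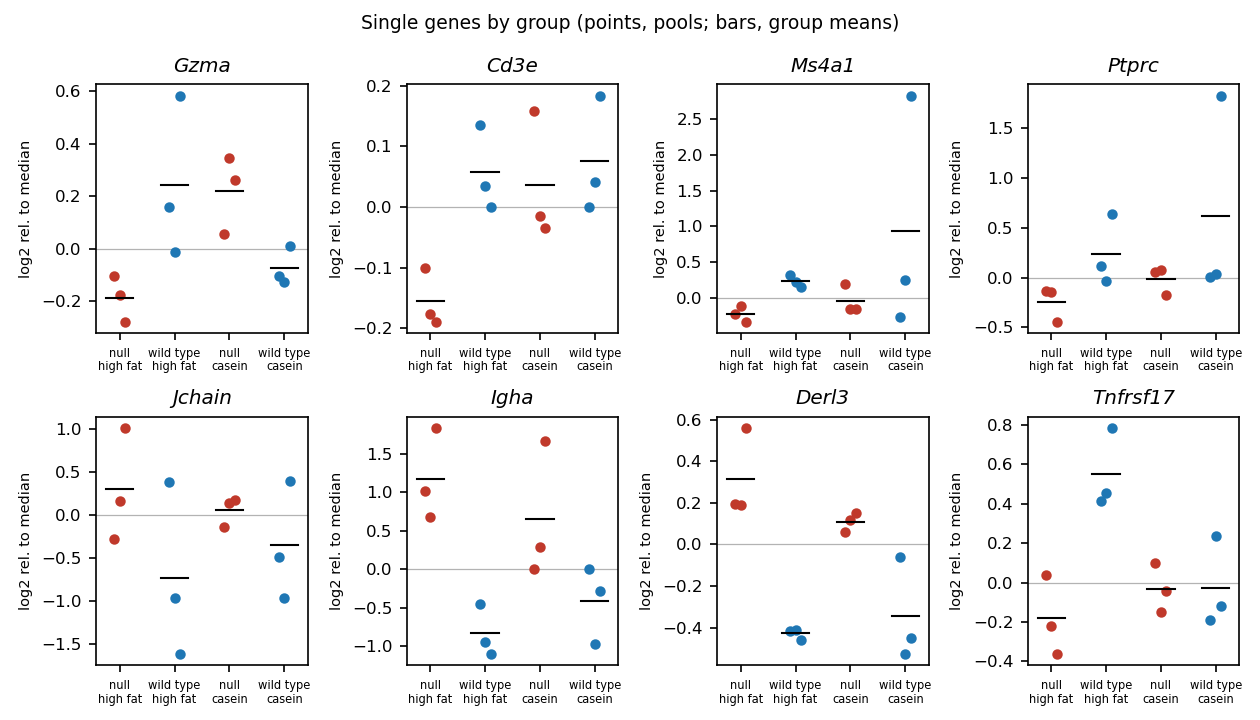
Values of 8 genes by group on the log2 scale relative to the 12-pool median; points are pools (red null, blue wild type) and bars the means of 3 pools. Null and wild type high fat diet pools do not overlap for Gzma, Cd3e, Ms4a1, Ptprc, Igha, Derl3 and Tnfrsf17, and they overlap for Jchain. The 8 genes were picked for display and do not represent all lymphocyte genes. Over all genes, null pools lay wholly below wild type pools on that diet for 17.3% and wholly above for 14.9%.

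The next comparisons asked whether the high fat diet changed lymphocyte genes. In null mice the limma fit called 0 of the 35 genes and 0.0% of all genes, and 2 of the 35 had an unadjusted p under 0.05. The median difference was -0.09 (0.00 over all genes), and 29 of the 35 were below 0. High fat diet pools lay wholly below casein pools for 7 genes, or 20.0%, against 5.7% of all genes, and wholly above for 0, against 4.89%. The 7 were Cd3e, Cd4, Cd8a, Cd79b, Mzb1, Gzma and Klrd1. Gzma averaged -0.19 ± 0.09 on the high fat diet and 0.22 ± 0.15 on casein (SD, n = 3 each), a difference of -0.41 ± 0.14 (SE, limma adjusted p = 1.0). Klrd1 averaged -0.13 ± 0.08 and 0.15 ± 0.10 in the same groups, and the differences of Cd4 and Cd8a were -0.06 and -0.10. Null high fat diet pool 3 was the lowest of the null pools for Cd3e, Cd79b and Gzma, and with array weights Gzma alone was called (limma adjusted p = 0.0261).

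In wild type mice the result turned on wild type casein pool 3. The limma fit called 0 of the 35 genes and 0.0% of all genes, and 1 of the 35 had an unadjusted p under 0.05. With all pools, 34 of 35 differences were below 0, with a median of -0.31. Without wild type casein pool 3, 27 of 35 were above 0 and the median was 0.08, still with 0 called. High fat diet pools lay wholly below casein pools for 0 of the 35 genes (4.86% of all genes) and wholly above for 0 (7.07%); without that pool the counts were 0 below (8.68%) and 7 above (10.2%). Ltb, for example, differed by -1.03 ± 0.76 (SE) with the pool and by 0.17 ± 0.17 without it. Ccr7 differed by -0.32 ± 0.46 with it and by 0.41 ± 0.13 without it (limma adjusted p = 0.916). Gzma, at 0.32 ± 0.14 (SE, limma adjusted p = 0.652), was the 1 gene above 0 in both.

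Between null and wild type mice on casein the same pool decided the sign. The limma fit called 0 of the 35 genes and 0.0% of all genes, and 0 of the 35 had an unadjusted p under 0.05. With all pools, 32 of 35 differences were below 0 and the median was -0.41 (-0.01 over all genes). Leaving out wild type casein pool 3 gave 11 of 35 below 0 and a median of 0.04. Without it, null pools lay wholly above wild type pools for 10 genes (8.74% of all genes) and wholly below for 1 (10.7%). The median of the T cell genes was -0.14 with that pool and 0.05 without it, and that of the B cell and plasma cell genes -0.52 with it and -0.01 without it. Cd79b differed by -1.15 ± 0.64 (SE) with the pool and by -0.16 ± 0.20 without it. Cd8b1 was the 1 gene whose null pools all lay below the wild type pools (6.57% of all genes did), and Gzma the 1 whose null pools all lay above (5.4% of all genes did), at 0.29 ± 0.14 (SE, limma adjusted p = 0.61).

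**Figure D5:**
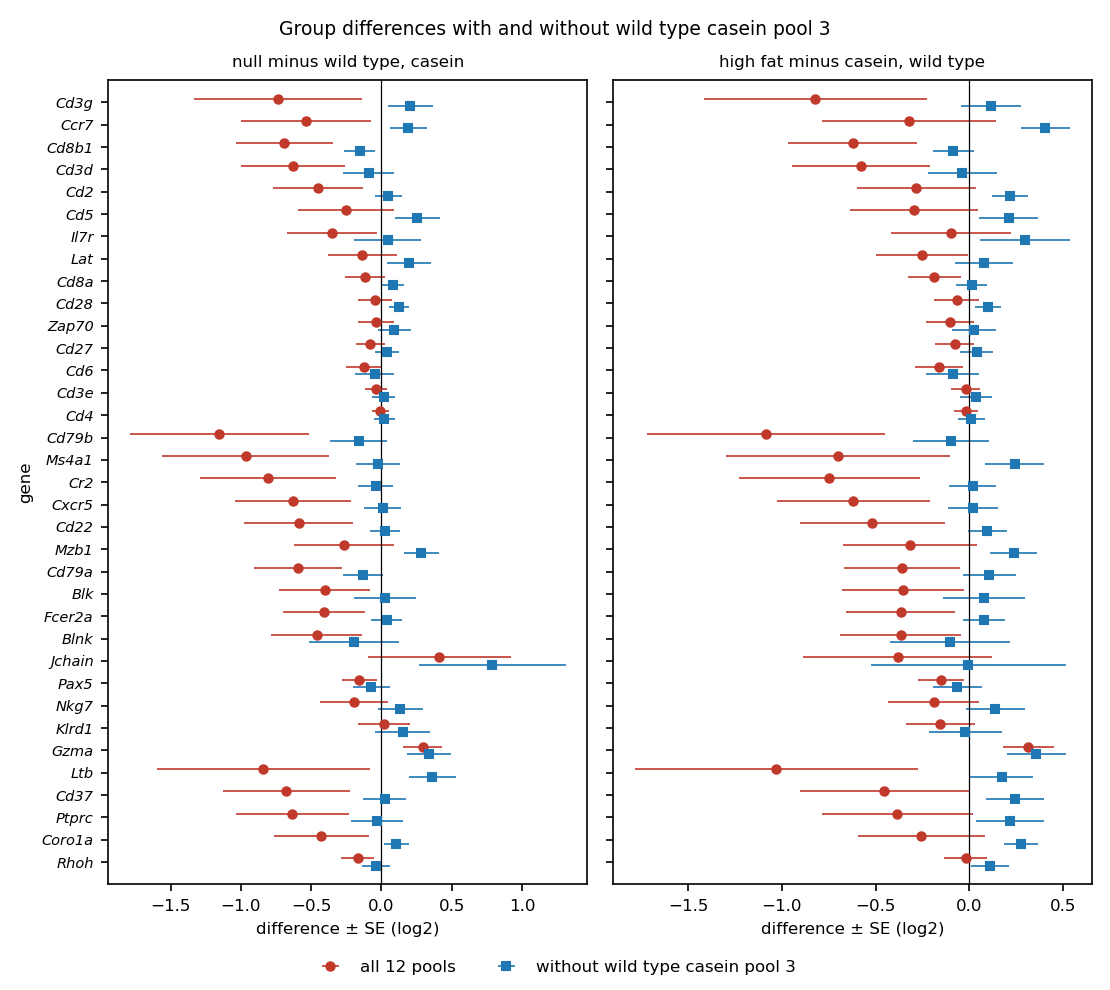
Difference (log2, ± SE of the limma fit) of each lymphocyte gene for null minus wild type on casein (left) and, in wild type mice, for the high fat diet minus casein (right), with all 12 pools (red circles) and without wild type casein pool 3 (blue squares). Most red circles lie left of 0, 32 of 35 and 34 of 35, and without the pool 11 and 8 of the 35 do.

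The interaction, the diet change in null mice minus that in wild type mice, was called for 0 of the 35 genes and 0.0% of all genes, and 1 of the 35 had an unadjusted p under 0.05. Its median was 0.20 with all pools and -0.17 without wild type casein pool 3, when 0 of the 35 genes and 0.0055% of all genes were called for the interaction, and likewise 0 and 0.0055% for the diet change in null mice. Gzma had the smallest p, at -0.72 ± 0.19 (SE, limma adjusted p = 0.789), and -0.77 ± 0.21 (limma adjusted p = 0.855) without that pool. All 3 null high fat diet pools were below every null casein pool for this gene, whereas in wild type mice the high fat diet pools, at 0.16, -0.01 and 0.58, overlapped the casein pools, at -0.10, -0.12 and 0.01.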

How the data were processed

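Per the labels, total RNA of fat pads was purified on columns and 8 µg were labelled with biotin for Affymetrix arrays. The tools named, per the submitters' processing notes, are GCOS and RMA (versions not given in the sources used here). The deposited log2 values were centred: the median over the 12 arrays was 0 for all 45101 probe sets (to within 1e-06). The base of 2 was taken from the use of RMA, and no filter on dim probe sets was possible.

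The annotation gave 1 gene to 34958 probe sets, several to 932 and none to 9211; the first were kept, and 34754 matched the RefSeq table (GRCm38.p6) by gene identifier. Probe sets of 1 gene were averaged. limma 3.58.1 in R 4.3.3 fitted 4 group means to 12 pools (8 residual and 2.5 prior degrees of freedom), two-sided, with Benjamini-Hochberg adjustment over 18194 genes and a threshold of 0.05; it was tested on simulated data. The number of arrays limits the precision, and no array carries a date or batch.

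Members and lists were chosen with earlier results of these data known. All 35 members with a probe set given to a single gene are described. Of the other lists, those past the threshold are named (up to 4, smallest p first), or at most 2 with the smallest p; the genes of other lists given for single pools were chosen after their values were seen. Sequences are RefSeq's, and the motifs were chosen after the values were seen. The pool titles give a number but do not say whether equal numbers were matched, and pool number was not in the main fit. Over 18 same-numbered pairs, deviations from the group means correlated from -0.61 to 0.59. This spread does not settle whether the pools were matched.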

Additional observations from a re-analysis of the deposited data

Results flagged for a closer look

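Gzma stood out because its null minus wild type difference had opposite signs on the diets, with no overlap between pools in either. On the high fat diet it was -0.43 (SE 0.14, limma adjusted p = 0.0863) and on casein 0.29 (SE 0.14, limma adjusted p = 0.61). The difference between them is the interaction, -0.72 (SE 0.19), which had an unadjusted limma p of 0.0037. The interaction did not pass after adjustment (limma adjusted p = 0.789, and 0.228 to 0.991 over its alternatives). Over all genes, null pools lay wholly below wild type pools for 17.3% on the high fat diet and wholly above for 5.4% on casein. The share of all genes with both was not analysed here, and Gzma rests on 1 probe set.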

How the results depend on the processing

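Over 3795 values of the 35 genes under the other settings, 3530 kept their sign and their side of the threshold, 4 passed it, none that passed reversed, and 261 uncalled values changed sign. The number called rose with array weights to 1 in the diet comparison of null pools (Gzma, -0.48) and to 2 in null against wild type on the high fat diet (Cd3e, -0.23, and Gzma, -0.38), and to 1 there in the fit of only the compared groups (Ms4a1, -0.45). With array weights the diet medians in null pools were -0.036 for T cell and -0.019 for B cell and plasma cell genes, and the null minus wild type T cell median on the high fat diet was -0.078; the weights did not reach their convergence tolerance. With the probe set of largest interquartile range, the B cell diet median in null pools was -0.14. Without a set of 3 pools with unusual levels of other tissues' genes (wild type casein pool 3, wild type high fat diet pool 2 and null high fat diet pool 1), the cytotoxic diet median in wild type pools was 0.17, the null minus wild type B cell median on the high fat diet was -0.22, and the interaction medians were -0.20 (T cell), -0.22 (B cell) and -0.39 (cytotoxic). Leaving out 1 pool at a time called 0 of the 35 genes in each comparison. It gave medians from -0.24 to 0.14 for the cytotoxic diet change in wild type pools, and for the diet change in null pools from -0.12 to -0.037 (T cell) and -0.13 to -0.053 (B cell). For null minus wild type on high fat diet it gave -0.13 to -0.057 (T cell) and -0.19 to -0.079 (B cell), and for the interaction -0.15 to 0.75 (B cell) and -0.28 to 0.12 (cytotoxic). The turn of the cytotoxic diet change and of the B cell interaction came without wild type casein pool 3 (0.14 and -0.15), and that of the cytotoxic interaction without wild type high fat diet pool 3. Quantile normalization again lowered the medians of wild type casein pool 3 to 0.64 (T cell), 0.83 (B cell) and 0.38 (cytotoxic). With pool number as a replicate block, 0 of the 35 genes were called in each comparison. The layout is balanced, so the block changes only the spread, and the medians had to equal those of the main result. For null minus wild type on the high fat diet these were -0.13 for T cell and for B cell genes. Other causes of these shifts were not tested. The base level of each gene and its signal over background are lost in the centred values, which limits what a flat gene can show.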
